A study of Mus musculus with 2 samples.

Results

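The locus of the 2 cardiac myosin heavy chain genes, Myh6 and Myh7, was examined in an ATAC-seq comparison of mouse heart. ATAC-seq uses the Tn5 transposase to cut and tag open DNA, so that counts in a peak measure how accessible that stretch of chromatin is. All peaks lying wholly within chr14:54935000-55015000 (GRCm38) were taken, whatever gene the table assigns them to, which gave 16 peaks of 58076. The members were chosen by position, but the locus was selected on the peak counts of both libraries, so each ratio below is a description of these libraries and none is a test. There was 1 library from control mice of genotype Ythdc1flox/flox and 1 from mice with the cardiac deletion, Ythdc1 CKO. Both groups were 15 days old and on normal chow. Ythdc1 encodes a nuclear protein that reads N6-methyladenosine in RNA. Not given in the sources used here are the promoter that drives the deletion, the number of animals in each library and any pooling.

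Myosin heavy chain is the motor of the thick filament of the sarcomere. Myh6 encodes the fast alpha form and Myh7 the slower beta form. In the mouse ventricle Myh7 predominates before birth, gives way to Myh6 around birth as thyroid hormone rises, and is often expressed again under stress. The genes lie in tandem on the minus strand, with Myh7 upstream of Myh6. Between them lies the start of Mhrt, a cardiac long noncoding RNA transcribed on the other strand, antisense to Myh7. Each myosin gene also carries a microRNA in an intron, Mir208a in Myh6 and Mir208b in Myh7.

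In the RefSeq table of the same build, Myh7 spans chr14:54970684-54994626 and Myh6 spans chr14:54941921-54968017. Their main start sites are at 54994626 and 54966607, and Mhrt starts at 54968787 on the plus strand. The promoters are shown because the peaks at these 3 starts behaved differently. Each sequence runs from 250 bases before to 50 bases after the start, 5′ to 3′ along the gene's own strand, from RefSeq (GRCm38.p6). Capitals mark matches to the motifs listed in the next paragraph.
Myh7 promoter, chr14:54994577-54994876, minus strand: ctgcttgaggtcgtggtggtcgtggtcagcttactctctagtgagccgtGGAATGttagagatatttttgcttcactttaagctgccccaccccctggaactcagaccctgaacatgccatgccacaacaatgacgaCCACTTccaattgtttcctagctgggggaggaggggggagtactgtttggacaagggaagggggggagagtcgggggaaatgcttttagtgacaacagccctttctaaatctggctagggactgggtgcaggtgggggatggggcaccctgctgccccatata
Myh6 promoter, chr14:54966558-54966857, minus strand: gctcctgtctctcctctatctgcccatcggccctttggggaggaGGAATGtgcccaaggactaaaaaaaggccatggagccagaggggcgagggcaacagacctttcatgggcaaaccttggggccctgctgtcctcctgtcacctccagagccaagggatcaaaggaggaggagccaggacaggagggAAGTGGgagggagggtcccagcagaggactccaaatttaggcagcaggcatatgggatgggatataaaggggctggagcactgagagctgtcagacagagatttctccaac
Mhrt promoter, chr14:54968537-54968836, plus strand: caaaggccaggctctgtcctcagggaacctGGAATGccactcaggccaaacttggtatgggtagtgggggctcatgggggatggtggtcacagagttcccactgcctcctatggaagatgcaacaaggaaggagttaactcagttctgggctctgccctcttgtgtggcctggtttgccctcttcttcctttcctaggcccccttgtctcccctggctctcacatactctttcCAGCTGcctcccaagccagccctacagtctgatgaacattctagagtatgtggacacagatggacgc

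Motifs were searched on both strands. The GATA family was read as the letters AGATAA or else TGATAA, the TEAD motif as CATTCC and the nuclear receptor element as AGGTCA. The E-boxes were CAGCTG or else CACGTG, the NKX2-5 motif was AAGTGG or else AAGTGC, and the glucocorticoid response element core was ACANNNTGT. MEF2 was read as 3 fixed strings of 10 letters and SRF as 4. All 3 promoters held 1 TEAD match, which 14.6% of 27025 promoters of the same length held. Counted from the start, its first base was at -201 in Myh7, -206 in Myh6 and -220 in Mhrt. Myh7 and Myh6 each held 1 NKX2-5 match (26.8% of all promoters) and Mhrt held 1 E-box (22.1%). No match to the GATA, nuclear receptor, glucocorticoid, MEF2 or SRF letters lay in these windows, against 19.0%, 16.0%, 6.90%, 0.829% and 0.207% of all promoters. Elements with other letters were not sought, so the lack of a match does not show that a promoter lacks such an element. No 2 of the motifs overlapped in these promoters, and a match is a description of letters and not a bound site. Aligned end to end, the Myh6 and Myh7 promoters were identical at 48.0% of 321 aligned positions. No unrelated promoters were aligned beside them, so this value alone does not show likeness. Whole promoters of Myh6 and Mhrt lay inside a peak, whereas the Myh7 peak covered 74 of the 300 bases, the end farthest from the start, which includes the TEAD match and not the NKX2-5 match.

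The hosted microRNAs are shown because they share a seed (bases 2 to 8, in capitals). They are given in RNA letters, from the minus strand.
mmu-miR-208a-3p, chr14:54949072-54949093: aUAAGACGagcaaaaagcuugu
mmu-miR-208b-3p, chr14:54975710-54975731: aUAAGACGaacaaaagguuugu
From miR-208a-3p to miR-208b-3p, with positions counted from the 5′ end, the differences were G10A, A16G and C18U, all outside the seed. Neither microRNA lay in a peak. The nearest peak to miR-208a-3p was 4966 bp away and the nearest to miR-208b-3p was 2156 bp away.

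The control library held 6755590 counts in peaks and the knockout library 6466537. Counts were scaled by these totals (CPM), and log2 ratios of knockout over control were computed with 0.5 counts added to each. Brackets below give exact (Clopper-Pearson) 95% intervals of the ratio, which cover counting error only and no variation between animals. On the authors' RPM scale, which divides by a larger library total, the median log2 ratio over all peaks is 0.17 lower, and a direction here is one against the bulk of peaks. All 10 cardiomyocyte marker genes had a promoter peak (within 1 kb of the start). No myeloid or epithelial marker had one (of 6 and 4 genes with a known start). Among the skeletal muscle markers, Myod1, Myog and Pax7 had none, and the start of Actn3 was not known. Ckm and Tnnt3 did have promoter peaks, the strongest with 207 and 138 counts for Ckm and 73 and 45 for Tnnt3 (control and knockout).

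The window held 10457 control counts and 7110 knockout counts, a ratio of 0.710 (0.689 to 0.732). The difference was uneven. Accessibility was lower in the knockout over the Myh7 promoter and the region upstream of it, over the Myh6 gene body and at the 2 peaks nearest the 3′ end of Myh6. It was nearly equal at the Myh6 promoter and higher at the start of Mhrt, at 1 peak inside the 3′ part of Myh7 and at the start of Cmtm5, the next gene past Myh6. Of the 16 peaks, 12 had a log2 ratio below 0 and 4 above, with a median of -0.54 against -0.05 over all peaks.

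A size of 2-fold was used to count peaks. At least 2-fold lower were 3 of the 16, where 8.96% of all peaks were so, and at least 2-fold higher were 0 of 16, where 6.09% were so. The interval lay below 1 at 10 of the 16 (21.7% of all peaks) and above 1 at 3 (17.7%). Stronger peaks have narrower intervals, and the median mean CPM was 35.9 in the window against 9.41 over all peaks. The interval shares of all peaks are therefore not a like background. The background itself depends on scaling. Higher peaks made up 40.5% of all peaks past 2-fold here, 24.6% on the RPM scale and 68.6% with a loess trend removed. The authors marked 7 of the 16 as found in both libraries, 6 as found only in the control and 3 only in the knockout. Peaks found in 1 library alone were 45.0% of the table, and the finding itself favours a high count there.

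**Figure D1:**
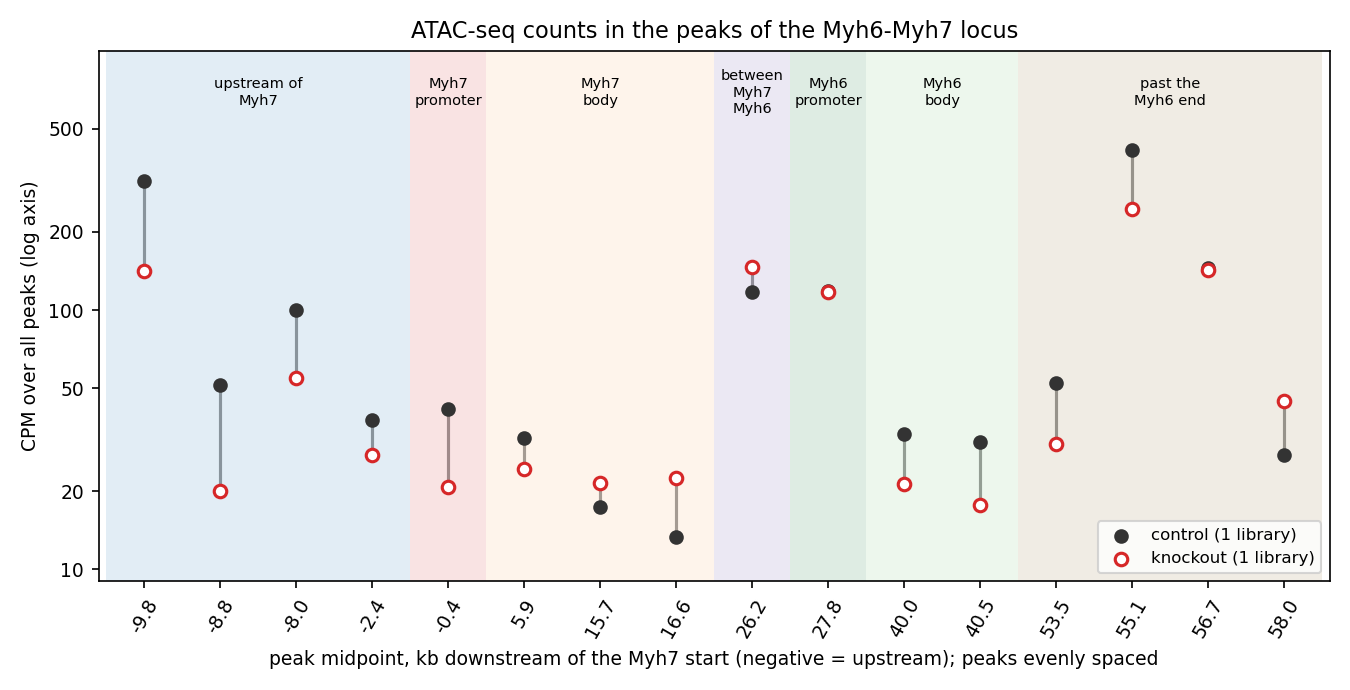
CPM (log axis) in the 16 peaks, for the control (filled) and the knockout (open), 1 library each, ordered from upstream of Myh7 to beyond the 3′ end of Myh6. The knockout point lies below the control point at each of the 5 peaks upstream of or at the Myh7 promoter, and above it at the peak between the genes.

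The region upstream of Myh7 held the clearest difference. Its strongest peak, chr14:55003748-55005134, began 9122 bp upstream of the Myh7 start. It had 2121 counts in the control against 915 in the knockout, a ratio of 0.451 (0.417 to 0.487) and a log2 ratio of -1.15. This peak was found in both libraries and is 1387 bp wide, with 5 summits listed by the authors. The authors annotate it as distal intergenic, and in RefSeq it overlaps the end of Gm31251, a long noncoding RNA gene that runs on the plus strand across Myh7.

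Just closer to the gene, the peak chr14:55003253-55003528 had 346 and 130 counts, the lowest ratio of the window at 0.393 (0.318 to 0.482). It was found in the control alone. The peak chr14:55002330-55002965, found in both, had 674 and 354 counts, a ratio of 0.549 (0.481 to 0.625). Together these 3 neighbours form a cluster 7704 to 10508 bp upstream in which each interval ends at or below 0.625.

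The last of the upstream peaks, chr14:54996849-54997132, begins 2223 bp before the start and differed less. It had 255 and 178 counts, a ratio of 0.729 (0.599 to 0.887). Summed over the 4 upstream peaks, control counts were 3396 and knockout counts 1577, a ratio of 0.485 (0.457 to 0.515).

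The Myh7 promoter peak, chr14:54994803-54995165, lies 177 bp upstream of the start and was found in the control alone. It had 281 and 134 counts, a ratio of 0.498 (0.402 to 0.614) and a log2 ratio of -1.002. This places it at the 2-fold size, and the count of 3 peaks at least 2-fold lower became 2 with TMM scaling and 4 on the RPM scale. Taken as a sum, the upstream peaks changed in nearly the same proportion as the promoter, although their single ratios ran from 0.393 to 0.729. The ratio of upstream to promoter counts was 12.1 for the control library and 11.8 for the knockout, the latter 0.974 of the former (0.783 to 1.22).

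Inside Myh7 the peaks were weak and split by position. The peak 5.76 kb downstream of the start, chr14:54988560-54988862, had 217 and 158 counts, a ratio of 0.761 (0.616 to 0.938). Farther into the gene, the peak chr14:54978764-54979066 had 117 and 139 counts, a ratio of 1.24 (0.964 to 1.601), an interval that holds 1. The peak chr14:54977887-54978095 had 90 and 145 counts, a ratio of 1.68 (1.29 to 2.21). The first was found only in the control and the other two only in the knockout, the direction in which each was selected. The authors annotate the pair found only in the knockout as promoter peaks of other gene identifiers, ENSMUSG00000090889 and ENSMUSG00000115610. Each of the peaks inside Myh7 also lies in the span of Gm31251. Reads in exons that Myh6 and Myh7 share nearly letter for letter could be placed in either gene, and which bases of these peaks are exonic was not analysed here.

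The peak chr14:54967971-54968881 lies between the genes by its midpoint and was found in both libraries. It covers the Mhrt start and also overlaps the 5′ end of the Myh6 RefSeq span, 1364 bp upstream of the main Myh6 start. Its counts were 793 in the control against 945 in the knockout, a ratio of 1.24 (1.13 to 1.37). On the RPM scale its ratio was 1.11, with an interval of 1.004 to 1.22. It was the only one of the 7 peaks found in both libraries that was above 1. If the deletion is driven by a transgene that carries a fragment of the Myh6 promoter, reads from its copies would be counted in this peak or the next in the knockout, which was not tested.

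The Myh6 promoter peak, chr14:54966425-54967285, was also found in both. It had 799 and 758 counts, a ratio of 0.991 (0.896 to 1.10). With this scaling its interval holds 1, but on the RPM scale the ratio was 0.880 (0.795 to 0.973), so its direction is not settled by these data. Which way the pair of promoters moved relative to each other does not depend on any scaling by a library total, although each of these contrasts would shift with extra copies of the Myh6 promoter. The Myh7 promoter held 0.352 control counts for each at the Myh6 promoter, and 0.177 knockout counts for each, the latter 0.503 of the former (0.397 to 0.635). The 4 upstream peaks held 4.25 and 2.08 counts for each count at the Myh6 promoter, 0.489 of the control (0.435 to 0.551). The Mhrt peak held 0.992 and 1.25 counts, a ratio of 1.26 (1.09 to 1.44).

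Within the Myh6 gene the picture was unlike that at its promoter. The authors place both of its peaks in intron 20 of 38. The peak chr14:54954497-54954712 had 224 and 138 counts, a ratio of 0.644 (0.517 to 0.799). Its neighbour chr14:54954059-54954260 had 210 and 114 counts, a ratio of 0.567 (0.447 to 0.716). Both were found in the control alone, and both lie within Gm52092, a long noncoding RNA gene inside Myh6. Relative to the Myh6 promoter their summed counts were 0.612 of the control (0.507 to 0.739).

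Beyond the 3′ end of Myh6 lay the strongest peak of the window, chr14:54938560-54940487. Its 2806 control counts compared with 1592 in the knockout, a ratio of 0.593 (0.557 to 0.631), and the peak was found in both libraries. It begins 1434 bp past the Myh6 end, within the span of Cmtm5, which encodes a membrane protein of the MARVEL family. Next to it and 658 bp past the Myh6 end, the peak chr14:54941022-54941263 had 354 and 197 counts, a ratio of 0.581 (0.486 to 0.694), and was found in the control alone. The authors assign both to promoters of an unnamed transcript (ENSMUSG00000115234).

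The other two peaks of Cmtm5 had higher ratios. The broad peak chr14:54937510-54938402 had 984 and 924 counts, a ratio of 0.981 (0.896 to 1.07). The peak at the Cmtm5 start, chr14:54936458-54936730, had 186 and 289 counts, a ratio of 1.62 (1.35 to 1.96), and was found in the knockout alone. Without the strongest peak, the summed log2 ratio of these 4 peaks was -0.05 in place of -0.47, so the sum rests on that peak.

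**Figure D2:**
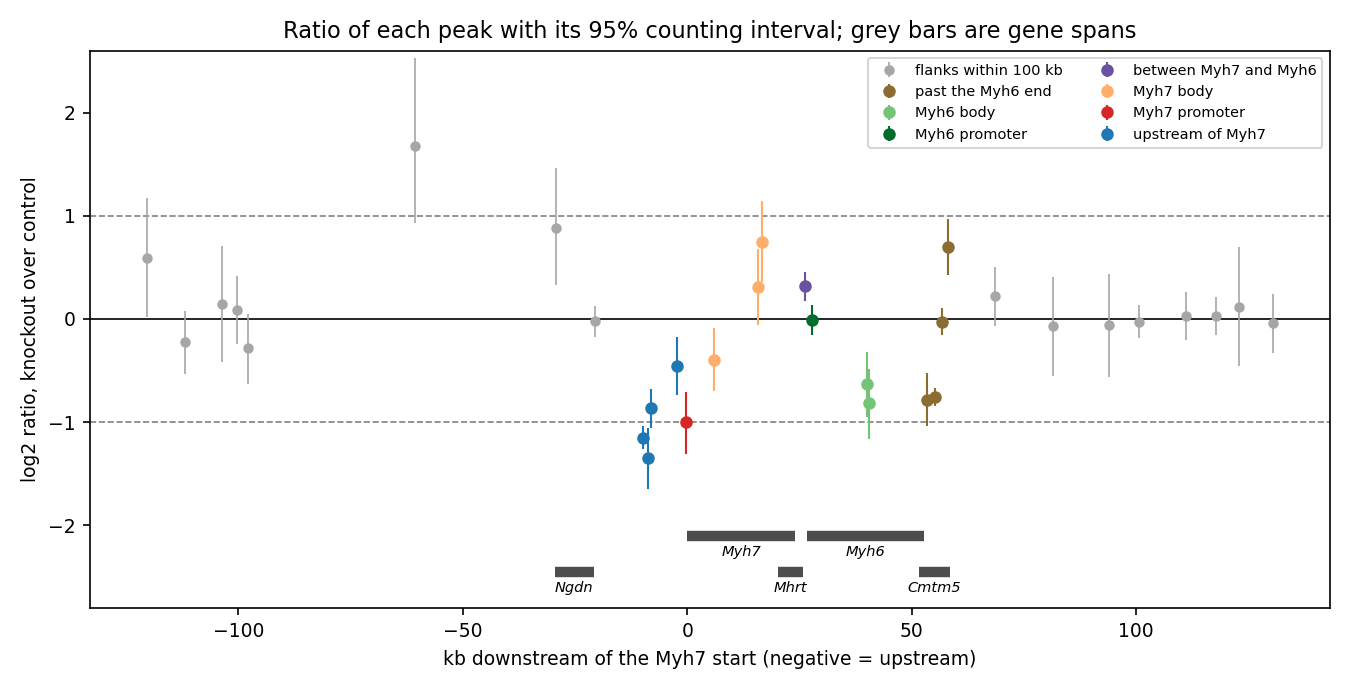
Log2 ratio of knockout to control at each peak, with its 95% counting interval, by distance from the Myh7 start; coloured points are the 16 peaks of the locus, grey points the 16 peaks within 100 kb on either side, dashed lines mark 2-fold. The blue and red points around the Myh7 start lie between -0.45 and -1.35, and most grey points lie near 0.

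Levels were also compared per length, as CPM per kb of peak. In the control the strongest upstream peak of Myh7 ranked first of the 16 with 226 CPM per kb, followed by both peaks just past the Myh6 end (217 and 215). In the knockout that upstream peak was at 102 CPM per kb and ranked 8, and the highest were the peaks at the starts of Cmtm5 (164) and Mhrt (160). The Myh7 promoter peak went from 115 to 57.1 CPM per kb and was the lowest of the 16 in the knockout.

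The Myh7 promoter and upstream peaks together held 35.2% of the window's counts in the control (exact interval 34.2% to 36.1%) and 24.1% in the knockout (23.1% to 25.1%). The Myh6 promoter and Mhrt peaks held 15.2% (14.5% to 15.9%) and 24.0% (23.0% to 25.0%). The Myh7 side held the larger share among control counts, and the shares were about equal among knockout counts.

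Most neighbouring peaks had ratios near 1. The nearest peak below the window, at the Efs promoter, had 193 and 215 counts (1.16, 0.954 to 1.42). On the other side, the nearest peak, at the Ngdn promoter, overlaps the edge of the window and was counted with the flanks. It had 723 and 681 counts (0.984, 0.885 to 1.09). The 16 peaks within 100 kb on either side summed to 3498 and 3419 counts, a ratio of 1.02 (0.974 to 1.07), with 0 at least 2-fold lower and 1 at least 2-fold higher. The interval lay below 1 at 0 of these 16 and above 1 at 3. Those 3, named after their values were seen, were weak peaks assigned to Zfhx2 (19 and 59 counts, 3.24, 1.91 to 5.76), Ngdn (43 and 76, 1.85, 1.25 to 2.75) and Jph4 (45 and 65, 1.51, 1.02 to 2.26). The 115 peaks within 1 Mb had a summed ratio of 1.05 (1.02 to 1.07), with 5 at least 2-fold lower and 3 higher. Over all peaks, 8.96% were at least 2-fold lower and 6.09% higher, and the interval lay below 1 at 21.7% and above 1 at 17.7%. Those are weaker peaks, with a median mean CPM of 9.41 against 23.1 in the flanks within 100 kb. Peaks were also denser in the window, with 20 per 100 kb against 5.75 in the flanks within 1 Mb.

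Set among all peaks, the strongest upstream peak had a low ratio for its strength. Only 32 peaks of the table, itself included, had a mean CPM as high or higher, and none of the others had a ratio as low. Of the 1249 peaks at least as strong as the peak beginning 7704 bp upstream, 5 including itself had a ratio as low. Of the 6865 at least as strong as the peak with the lowest ratio, 2 including itself did. The strongest peak past the Myh6 end was the lowest in ratio among the 19 peaks at least as strong. Because the locus was selected on these same counts, the ranks describe its peaks and are not a test.

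**Figure D3:**
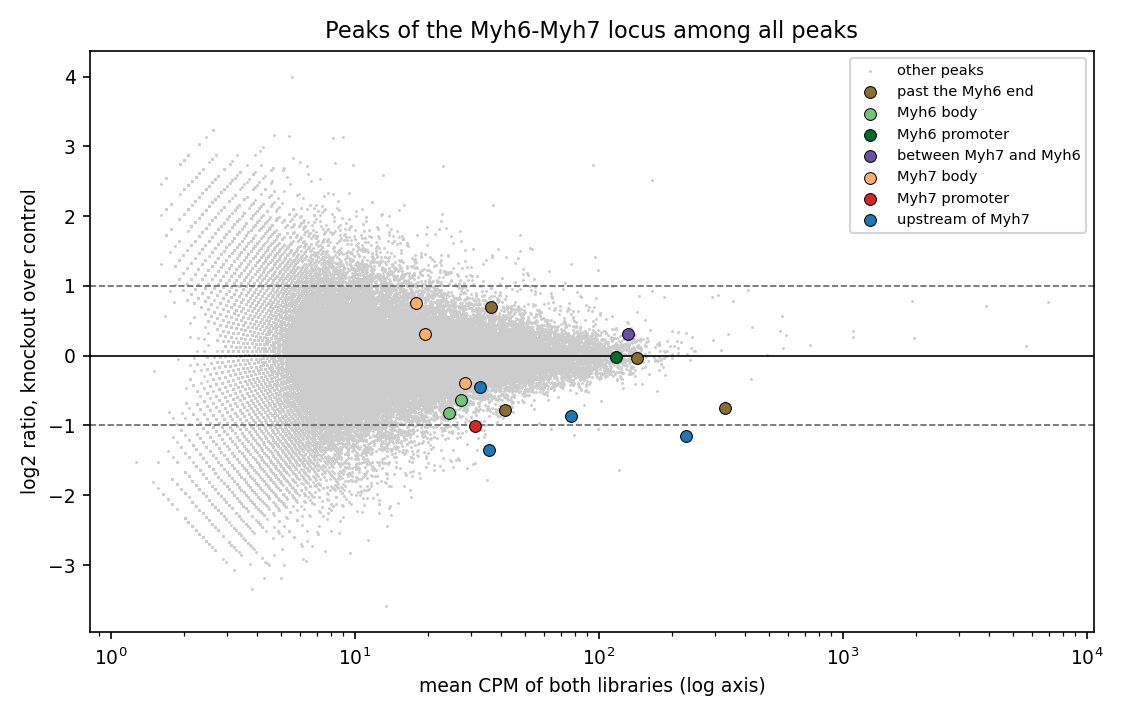
Log2 ratio against mean CPM (log axis) for all 58076 peaks (grey) and the 16 peaks of the locus (coloured by position), dashed lines at 2-fold. At the right of the plot, where few peaks lie past 2-fold, the strongest upstream peak of Myh7 is at -1.15 and the strongest peak past the Myh6 end at -0.75.

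The peaks most like the strongest peak of the window were sought by distance in log2 CPM of both libraries, which are only 2 points per peak. The nearest was assigned to Mir133a-2, a muscle microRNA gene (2723 and 1641 counts, distance 0.062, log2 ratio -0.67). Next came a peak assigned to Ccdc63 that also lies in the span of Myl2, the ventricular myosin light chain gene (3182 and 2420 counts, distance 0.631, log2 ratio -0.33). Peaks assigned to Gm39469, Abtb1 and Tmem125 followed at 0.779, 0.856 and 0.923, with log2 ratios of -0.06, 0.11 and 0.27, against -0.75 at the strongest peak itself. Beyond the first, the likeness was in level more than in ratio.

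Where a gene has several promoter peaks, the strongest by mean CPM of both libraries was read. Read so, promoters of other myosin heavy chain genes had log2 ratios between -0.47 and 0.32, against -1.002 at Myh7. Of 12 genes, the 5 with a promoter peak had a median log2 ratio of -0.04, against -0.02 over 13124 genes with a promoter peak. None of the 5 strongest peaks was past 2-fold, where 1.75% of those genes were at least 2-fold lower and 1.55% at least 2-fold higher. Myh7b, a sarcomeric relative of Myh7, had 100 and 69 counts at its strongest promoter peak (0.721, 0.523 to 0.989). Its second promoter peak was slightly higher in the control and was found there alone. It had 102 and 32 counts (0.328, 0.213 to 0.492), a log2 ratio of -1.59 that is lower than that of the Myh7 promoter. The nonmuscle genes Myh9, Myh10 and Myh14 had ratios of 0.837 (0.754 to 0.929), 1.24 (1.09 to 1.42) and 0.973 (0.743 to 1.27). Myh11, of smooth muscle, was at 1.25 (0.863 to 1.82). The skeletal genes Myh1, Myh2, Myh3, Myh4, Myh8 and Myh13 had no promoter peak in the table, and neither had Myh15. Inside the spans of the 12 genes lay 32 peaks, of which 2 (6.25%) were at least 2-fold lower and 0 higher. Over all peaks these shares were 8.96% and 6.09%.

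Factors known to act on the cardiac myosin promoters were taken as a list of 28 genes, of which 26 had a promoter peak (the start of Tbx5 was not known). Their median log2 ratio was -0.09, with 14 below 0 and 12 above. None was past 2-fold, where 1.75% of all genes with a promoter peak were lower and 1.55% higher. The largest differences were at Rxrg, a retinoid X receptor that pairs with thyroid hormone receptors (159 and 97 counts, 0.637, 0.490 to 0.826), and Nkx2-5, a cardiac homeodomain factor (176 and 109, 0.647, 0.505 to 0.826). Med13, a Mediator subunit, was higher (169 and 237, 1.47, 1.198 to 1.80). Hdac9, a histone deacetylase gene, was lower at its strongest promoter peak (92 and 61, 0.693, 0.493 to 0.968) and not at its weaker one (23 and 34, 1.54, 0.884 to 2.75), so its direction turns with the peak read. The thyroid hormone receptor genes differed in direction, with Thra at 133 and 177 counts and Thrb at 331 and 225, and were singled out after their values were seen.

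Genes whose isoforms switch around birth were set beside the locus. Of 6 fetal or stress genes, 5 had a promoter peak, of which 3 were at least 2-fold higher and 1, Myh7, at least 2-fold lower. Over the 13124 genes with a promoter peak, 1.55% were at least 2-fold higher and 1.75% at least 2-fold lower. Acta1, skeletal alpha-actin, had 18 and 66 counts (3.83, 2.25 to 6.86), Tnni1, slow troponin I, 33 and 110 (3.48, 2.34 to 5.31), and Ankrd1, a stretch-induced ankyrin repeat gene, 181 and 507 (2.93, 2.46 to 3.49). Myh7 was the only one of the 5 below 0, and Myl4, an atrial light chain gene, was at 354 and 372 counts. The Acta1 and Tnni1 peaks were found in the knockout alone. Among 9 adult ventricular genes, 7 were below 0 and 2 above, with a median of -0.19 and none past 2-fold. That median was -0.38 over the mean of each gene's promoter peaks and -0.36 on the RPM scale. Myh6 was the seventh lowest of these, and Actc1, cardiac actin, was the lowest (335 and 184, 0.574, 0.477 to 0.689). Myl4 and Actc1 were named after their values were seen.

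**Figure D4:**
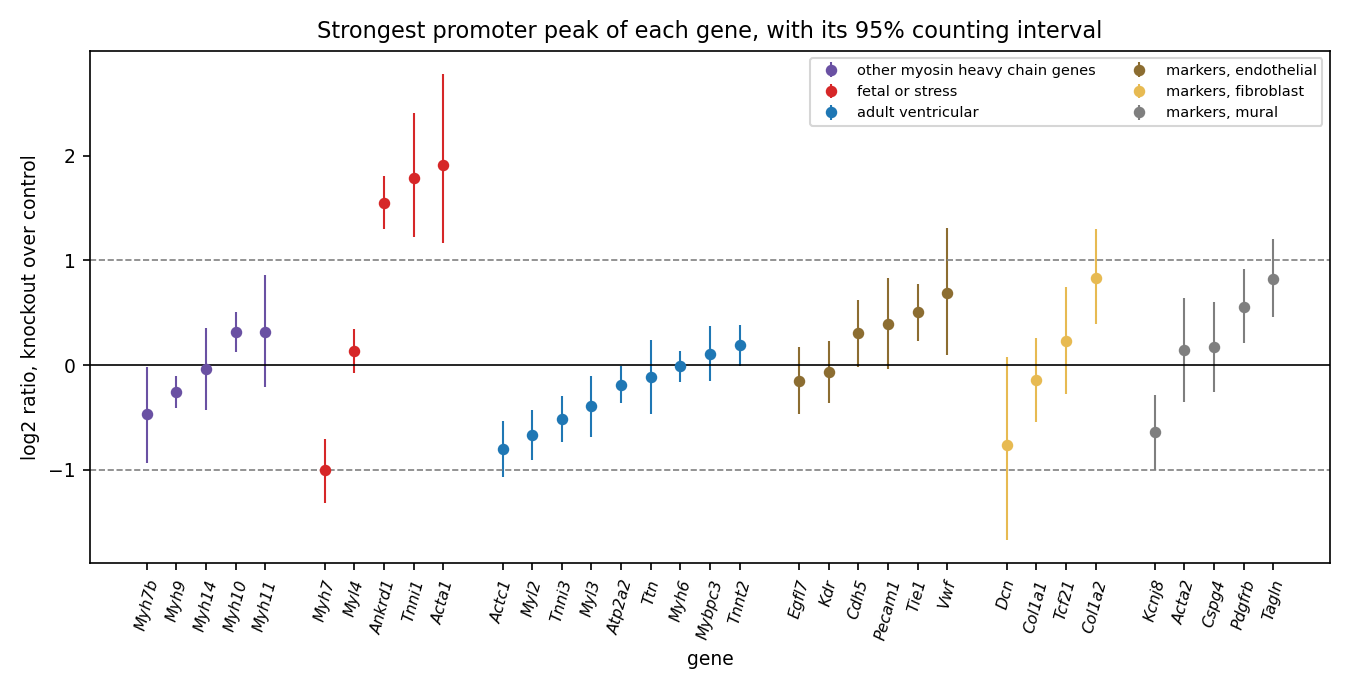
Log2 ratio of the strongest promoter peak of each gene, with its 95% counting interval, for other myosin heavy chain genes, fetal or stress genes, adult ventricular genes and markers of endothelial, fibroblast and mural cells; dashed lines mark 2-fold. Myh7 lies at -1.002 while Ankrd1, Tnni1 and Acta1 lie between 1.55 and 1.91, and the other myosin heavy chain genes lie between -0.47 and 0.32.

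Cardiomyocyte markers were lower in the knockout in this bulk tissue, in which fewer nuclei of a type and less open chromatin per nucleus cannot be told apart. The 8 cardiomyocyte markers other than Myh6 and Myh7 had summed promoter levels of 335 CPM (control) and 253 CPM (knockout), with a median log2 ratio of -0.53 and 7 of 8 below 0. Of these, Tnnt2, Tnni3, Actc1, Myl2 and Myl3 are also in the adult ventricular list and Nkx2-5 is among the regulators. The lists are thus not separate observations. The 6 endothelial markers summed to 126 and 147 CPM (4 of 6 above 0), 4 of 6 fibroblast markers to 41.2 and 46.9 (2 above 0, with no promoter peak at Pdgfra and no known start for Lum) and 5 of 6 mural markers to 81.3 and 94.0 (4 above 0, none at Rgs5). The intervals of single genes lay above 1 at 2 endothelial, 1 fibroblast and 2 mural markers, and below 1 at 1 mural marker. The median log2 ratios of these 3 lists were 0.35, 0.05 and 0.17, and on the RPM scale 0.17, -0.12 and -0.0032, so their direction depends on the scaling for fibroblast and mural markers. The part of cell composition in the lower counts of the locus was not tested.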

How the data were processed

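Tools listed in the submitters' processing notes are BWA and MACS2, with build GRCm38.p6 and no versions. Not given in the sources used here are read filters, the Tn5 shift and what was counted. Per the file headers, the authors deposited raw whole-number counts for each merged peak. The deposited RPM values equal (count + 1) times 1 constant per library. The authors' fold enrichment, a ratio, was used for a filter alone, and their deposited log2 fold change is the log2 ratio of the RPM values. Peak starts were read as 1-based.

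From the counts, CPM, log2 ratios (0.5 counts added) and exact 95% intervals were computed in Python 3.11.15 with scipy 1.17.1. Alternatives were the RPM scale, TMM factors from edgeR 4.0.16, a loess trend, scaling by neighbouring peaks, 5 added counts and other peak filters. With 1 library per genotype no p-value was computed. The steps were tested on simulated data. The median count per peak was 65 (control) and 60 (knockout).

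The window, the lists and the rules were chosen with earlier results of these data known. Positions in the locus follow RefSeq spans by peak midpoint, with promoter peaks within 1 kb of a start. For genes whose start was not in the promoter table, the span end on the authors' strand was used, and Tbx5, Actn3, Lum and Sftpc had neither. Identifiers took the RefSeq symbol whose span overlapped theirs by at least 0.5 of the union, which matched 17296 of 24480. Named genes were all peaks of the window, all myosin heavy chain genes with a promoter peak, the 4 regulators and 4 switch genes with the largest ratios, and the 5 genes with the nearest peak.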

Additional observations from a re-analysis of the deposited data

How the results depend on the processing

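Directions held under the scalings run at 14 of the 16 peaks. The other two, near 0, turned with TMM, the Myh6 promoter to 0.04 and the broad Cmtm5 peak to 0.02, and the sum over the Myh7 body went from 0.12 to -0.05 on the RPM scale. Of 80 alternative values of single peaks, 75 stayed inside their counting interval and 5 left it, all on the authors' RPM scale. On that scale the summed log2 ratios were -0.67 for the window (main value -0.49), -1.22 upstream of Myh7, -0.64 past the Myh6 end, -0.185 at the Myh6 promoter and 0.14 between the genes. The window sum was -0.44 with TMM, -0.56 scaled by the peaks within 1 Mb and -0.41 without its strongest peak, whose loss also brought the sum past the Myh6 end to -0.049. With promoters within 3 kb, the Myh6 promoter took in the Mhrt peak and stood at 0.16, and the Myh7 promoter took in the peak 2223 bp upstream and stood at -0.72, no longer past 2-fold. A 1.5-fold rule gave 8 lower and 2 higher peaks, and peaks found in both libraries 1 lower. The shares of all peaks under these rules are not given here, so these counts cannot be set against a background. Why these values moved was not tested beyond what each change removes or adds. No paired analysis was possible because each genotype had 1 library. The weakest peak of the window held 90 counts in the control, which sets the width of its interval.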

Other observations

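Among the regulators of the myosin genes, lower peaks gathered inside a pair of genes that were singled out after their values were seen. Sox6, a transcription factor gene known for repressing slow muscle genes, had 5 of 17 peaks in its span at least 2-fold lower and 0 higher, while its strongest promoter peak had 223 and 224 counts. Hdac9 had 4 of 14 lower and 0 higher. Over the spans of all 28 regulators, 12 of 154 peaks were at least 2-fold lower (7.79%) and 4 higher (2.597%), against 8.96% and 6.09% of all peaks, so the regulators as a whole held no more lower peaks than the table.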
